A study of Homo sapiens with 24 samples.

Results

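Homocysteine (Hcy) can be remethylated to methionine (Met) in a cell or disposed of as cystathionine and cysteine. For their part in this branch point, 9 of the 26645 gene entries of the count table were taken by name. They were MTR and MTRR, which encode methionine synthase and the reductase that reactivates it, CD320, MMACHC and MMADHC, which bring cobalamin to that enzyme, AHCY, AHCYL1 and AHCYL2, which encode S-adenosylhomocysteine hydrolase and its homologs, and CTH, which encodes cystathionine gamma-lyase. Poly(A) RNA was sequenced from MDA-MB-468 (MB468), an established triple-negative breast cancer cell line of metastatic origin that depends on Met, and from MB468res-R8, a single revertant clone of it that was selected in Hcy medium and no longer depends on Met. Cells at 0 h were in Met+ medium with 100 µM L-methionine, and the others had been moved for 0.5, 2 or 12 h to Met-Hcy+ medium, in which 370 µM DL-homocysteine took the place of Met. Every medium also held 1.5 µM vitamin B12 as cyanocobalamin, 100 µM L-cysteine, 4 mM L-glutamine and 10% dialyzed serum, and each of the 8 groups had 3 libraries. No Met+ library at 12 h was analysed here, so a change at 12 h cannot be told apart from one of time in culture or of the change of medium itself.

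The 24 libraries held 11745553 to 36496655 counts, with a median of 20503827. Levels are given as normalized counts, that is counts scaled with edgeR's TMM factors to a library of common size, with the mean ± SD of n = 3 libraries. Genes were tested with the quasi-likelihood test of edgeR, p-values were adjusted after Benjamini and Hochberg over all 14741 genes tested, and a gene was called changed when the adjusted p was under 0.05. All 9 genes passed the filter on low counts. The labels do not say whether the 3 libraries of a group came from separate cultures, so p-values measure the spread between these libraries only. The epithelial markers EPCAM, CDH1, KRT5, KRT8, KRT18, KRT19 and EGFR were all present in every library, at 5803 normalized counts or more, PGR was at 2.2 or less, and ESR1 and ERBB2 were present at 94.5 to 513 and 872 to 2214. Of the markers of other cell types, PTPRC, CD3E, LYZ, COL1A2, COL3A1, DCN, LUM, ADIPOQ and LEP stayed at 4.5 or less in every library. PDGFRA, PDGFRB, PECAM1, CDH5, VWF and PLIN1 reached at most 61.3, CD68 lay between 64.8 and 228, and CD14, COL1A1 and KDR reached 3620, 1665 and 9072. From 0 to 12 h the mean of CD14 went from 3456 to 1447 in MB468 and, in MB468res-R8, from 1125 to 512, that of COL1A1 from 764 to 338 and from 1488 to 756, and that of KDR from 6284 to 3590 and from 982 to 195. The part of these markers in the results was not tested. In bulk RNA, fewer cells with a transcript and less of it in each cell cannot be told apart.

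Methionine synthase takes a methyl group from 5-methyltetrahydrofolate and hands it to Hcy through a cobalamin cofactor, and methionine synthase reductase restores the cofactor when it is oxidized. Cobalamin enters the cell on transcobalamin through the receptor CD320, is stripped of its upper ligand by the MMACHC protein and is steered to methionine synthase or to the mitochondrion by the MMADHC protein. Every methyl transfer from S-adenosylmethionine leaves S-adenosylhomocysteine, which AHCY splits to Hcy and adenosine. AHCYL1 and AHCYL2 resemble AHCY but are known mainly as regulators, AHCYL1 as IRBIT, the protein released from the inositol trisphosphate receptor. Cystathionine gamma-lyase splits the cystathionine made from Hcy and serine and so yields cysteine.

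The start sites of these genes are shown because the members moved in different directions at 12 h and because some of their promoters hold the same letters. The RefSeq promoter table (GRCh38.p14, 250 bases before to 50 after a start) listed 8 of the 9 members, several at more than 1 start. The capitals mark ACTACNNNTCCC, the element known to bind ZNF143 and THAP11, in MMACHC, MTR and AHCY, and TGACGTCA, the cyclic AMP response element, in AHCYL1.
MMACHC promoter, plus strand, chr1:45500050-45500349: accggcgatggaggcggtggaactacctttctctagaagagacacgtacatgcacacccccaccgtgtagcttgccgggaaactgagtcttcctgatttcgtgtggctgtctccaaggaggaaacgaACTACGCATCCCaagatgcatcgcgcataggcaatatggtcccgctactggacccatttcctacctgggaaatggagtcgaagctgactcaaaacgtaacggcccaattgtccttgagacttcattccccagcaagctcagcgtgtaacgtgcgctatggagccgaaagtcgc
MTR promoter, plus strand, chr1:236795031-236795330: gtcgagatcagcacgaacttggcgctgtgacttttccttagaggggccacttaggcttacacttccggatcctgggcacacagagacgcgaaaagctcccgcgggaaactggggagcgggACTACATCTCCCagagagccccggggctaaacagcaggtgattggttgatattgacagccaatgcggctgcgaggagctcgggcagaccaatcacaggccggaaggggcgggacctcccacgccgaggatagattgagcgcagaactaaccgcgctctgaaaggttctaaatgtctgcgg
AHCY promoter, minus strand, chr20:34302941-34303240: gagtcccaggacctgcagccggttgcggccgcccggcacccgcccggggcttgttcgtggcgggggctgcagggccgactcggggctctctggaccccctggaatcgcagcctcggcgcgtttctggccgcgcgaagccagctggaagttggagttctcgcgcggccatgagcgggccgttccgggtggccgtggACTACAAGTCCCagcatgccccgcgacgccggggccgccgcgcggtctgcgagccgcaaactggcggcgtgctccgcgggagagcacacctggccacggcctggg
AHCYL1 promoter, plus strand, chr1:109984515-109984814: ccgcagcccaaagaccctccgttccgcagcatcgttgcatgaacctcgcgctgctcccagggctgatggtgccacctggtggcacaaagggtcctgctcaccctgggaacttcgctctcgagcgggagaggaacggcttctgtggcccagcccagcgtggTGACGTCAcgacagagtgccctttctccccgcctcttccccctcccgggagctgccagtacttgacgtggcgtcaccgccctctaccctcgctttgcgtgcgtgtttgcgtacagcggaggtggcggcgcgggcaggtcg
CTH promoter, plus strand, chr1:70411018-70411317: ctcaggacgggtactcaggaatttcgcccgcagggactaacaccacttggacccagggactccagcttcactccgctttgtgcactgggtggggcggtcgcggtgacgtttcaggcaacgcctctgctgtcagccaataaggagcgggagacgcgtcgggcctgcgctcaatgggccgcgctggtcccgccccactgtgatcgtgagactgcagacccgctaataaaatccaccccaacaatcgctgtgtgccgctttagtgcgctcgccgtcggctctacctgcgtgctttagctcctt
Both strands were searched for 4 motifs, which were picked after the promoters had been read. ACTACNNNTCCC stood in 2.24% of the 35116 promoters of the table, in those of 2.73% of the 27305 gene symbols and in those of 3 of the 8 members listed. In MMACHC, MTR and AHCY its first base lay 123, 130 and 55 bases before the start. AHCY matched at 1 of its 3 listed starts. TGACGTCA stood in 1.85% of promoters and lay 90 bases before the first AHCYL1 start, and TGATGNAA, the amino acid response element, stood in 3.62% and was matched only at an AHCYL2 start, on the minus strand. CCAAT stood in 34.6% of promoters, in those of 39.7% of gene symbols and in those of 6 of the 8 members, CTH among them, and is not capitalized. These matches describe letters and do not show binding.

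At 12 h in Met-Hcy+ medium all 9 genes were called in MB468 (4 higher, 5 lower) and 7 were called in MB468res-R8 (5 higher, 2 lower). MTRR and MMACHC rose in both lines and AHCYL1 fell in both. MTR, AHCY and MMADHC fell in MB468 and rose in MB468res-R8, and CTH fell in MB468res-R8 but not in MB468, a difference between the responses that was itself called. Without any 1 of the 6 libraries compared, 8 members were called in MB468. These counts are read against a broad background. Of all genes tested, 36.1% were called higher and 34.7% lower in MB468, and 30.2% were called higher and 31.1% lower in MB468res-R8. Medians of the log2 fold change were -0.28 over the 9 members and 0.01 over all genes in MB468, and 0.24 and -0.02 in MB468res-R8. Scaling on the added spike-in RNAs in place of TMM moved the median of all genes at 12 h to -0.23 in MB468 and 0.00 in MB468res-R8, and the share of called genes that were higher in MB468 from 50.98% to 30.0%. With that scaling the MTR rise in MB468res-R8 was not called.

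**Figure D1:**
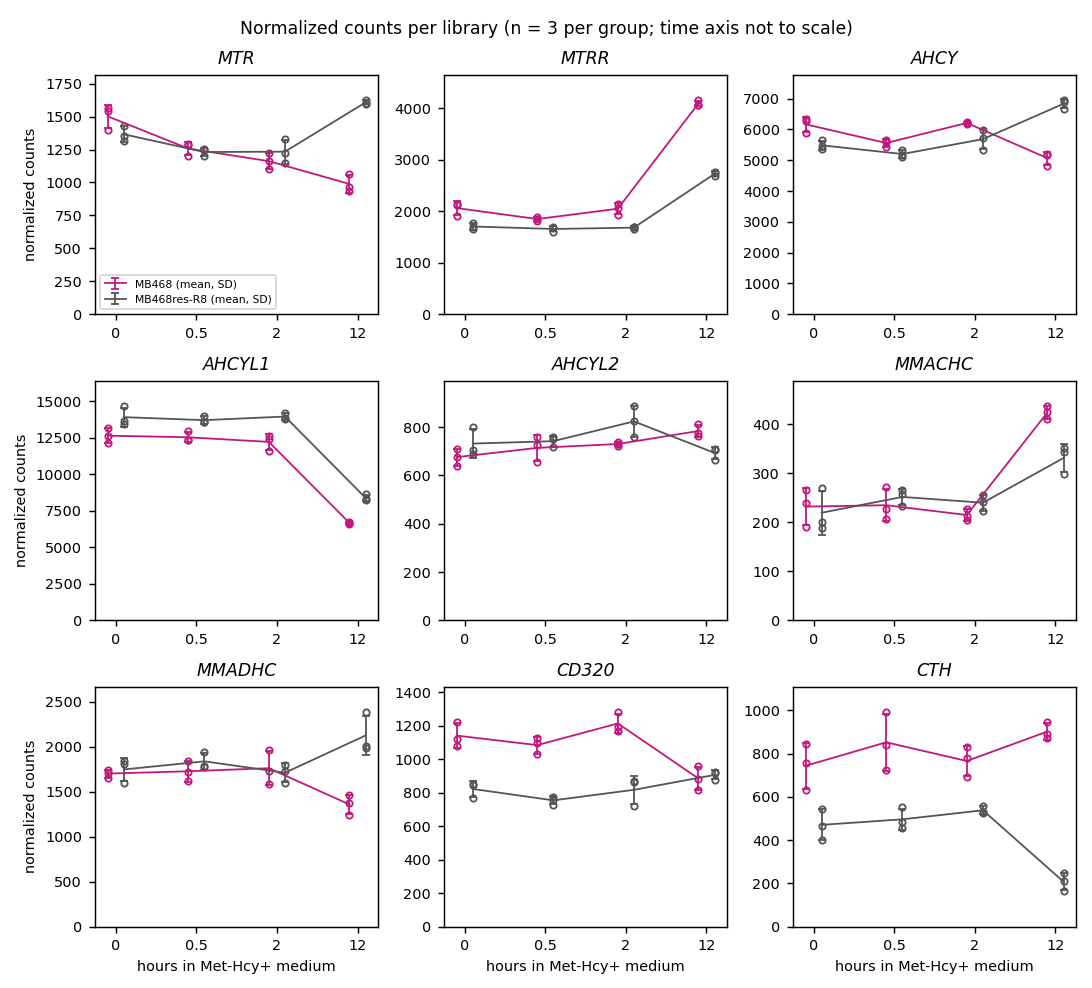
Normalized counts of the 9 genes (vertical axes, each from 0) against hours in Met-Hcy+ medium (0, 0.5, 2 and 12 h, not to scale), with open circles for libraries and lines and bars for the mean and SD of 3. MTRR in MB468 climbed from 2063 at 0 h to 4093 at 12 h while MTR fell from 1502 to 989, and CTH in MB468res-R8 fell to 208 at 12 h.

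MTR (chr1:236795260-236921278, plus strand, GENCODE v44 on GRCh38, 33 exons), the methionine synthase gene, fell in MB468 as early as 0.5 h. In MB468 its normalized counts were 1541, 1565 and 1400 at 0 h, 1282, 1290 and 1200 at 0.5 h, 1163, 1220 and 1102 at 2 h and 963, 1065 and 938 at 12 h. No MB468 library in Met-Hcy+ medium reached the lowest 0 h library, and those at 12 h were the lowest of all. The log2 fold change against 0 h was -0.26 ± 0.06 (SE; edgeR adjusted p = 0.000385) at 0.5 h, -0.38 ± 0.06 (adjusted p = 3.74e-06) at 2 h and -0.61 ± 0.06 (adjusted p = 1.02e-12) at 12 h, a level 0.654 times that at 0 h. Replicate 2 of MB468 at 2 h stood apart with 8251 counts of RN7SK, an RNA without a poly(A) tail, against 44 to 357 elsewhere, and without that library the 2 h value of MTR was -0.41. In MB468res-R8 the counts of MTR were 1312, 1356 and 1429 at 0 h, 1250, 1244 and 1199 at 0.5 h, 1225, 1147 and 1329 at 2 h and 1603, 1624 and 1595 at 12 h. The revertant thus ended with every 12 h library above every one of its earlier libraries, at 0.24 ± 0.06 above 0 h (edgeR adjusted p = 0.000318), although with spike-in scaling this rise kept its size (0.26) and lost its call (adjusted p = 0.11). The fall at 0.5 h in MB468res-R8 (-0.15, adjusted p = 0.0442) was lost under 5 of 6 omissions of a library (lowest and highest value -0.18 and -0.12), namely MB468res-R8 0 h replicates 2 and 3 and each 0.5 h library.

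MTRR (chr5:7851186-7906025, plus strand, 15 exons), whose product reactivates methionine synthase, rose late and in both lines. Its normalized counts in MB468 were 1914, 2147 and 2128 at 0 h, 1849, 1897 and 1803 at 0.5 h, 1935, 2145 and 2071 at 2 h and 4157, 4055 and 4066 at 12 h. In MB468res-R8 they were 1688, 1647 and 1780 at 0 h, 1682, 1601 and 1687 at 0.5 h, 1649, 1697 and 1702 at 2 h and 2676, 2767 and 2737 at 12 h. In both lines the 12 h libraries stood clear of all earlier ones, and those of MB468 stood clear of those of MB468res-R8. The rise was 1.99-fold in MB468 (log2 0.99 ± 0.04, edgeR adjusted p = 3.00e-22) and 1.60-fold in MB468res-R8 (0.68 ± 0.05, adjusted p = 4.04e-16). The rise was smaller in the revertant by 0.31 ± 0.06 (adjusted p = 6.11e-05), a difference that spike-in scaling reduced to -0.06 (adjusted p = 0.843). At 0.5 h MTRR was lower in MB468 by -0.15 (adjusted p = 0.00867), a call that was lost without MB468 0 h replicate 2, when the value was -0.13. FASTKD3, which shares 100 bp of exon with MTRR on the opposite strand, 1.54% of the MTRR exon bases, rose from 435 to 516 normalized counts at 0 h to 812 to 865 at 12 h in MB468. Whether the counting used strand is not stated, and the kit does not mark it, so reads from the shared bases cannot be assigned.

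MMACHC (chr1:45500300-45513382, plus strand, 4 exons), whose product removes the upper ligand of cobalamin, had the lowest level of the 9 per transcript length in every group and rose in both lines at 12 h. In MB468 it had 240, 265 and 191 normalized counts at 0 h, 207, 272 and 227 at 0.5 h, 228, 204 and 213 at 2 h and 411, 437 and 424 at 12 h. In MB468res-R8 it had 201, 188 and 271 at 0 h, 233, 258 and 265 at 0.5 h, 242, 223 and 255 at 2 h and 351, 298 and 345 at 12 h. The 12 h libraries were above all earlier ones in each line. The rise was 1.80-fold in MB468 (log2 0.85 ± 0.11, edgeR adjusted p = 8.73e-09) and 1.53-fold in MB468res-R8 (0.61 ± 0.12, adjusted p = 1.75e-05). The responses were not shown to differ, with a difference of -0.24 and a 95% interval of -0.56 to 0.09 (adjusted p = 0.21). PRDX1 lies on the opposite strand and shares 501 bp of exon, 9.92% of the MMACHC exon bases. It was counted far higher, at 14107 to 14545 normalized counts at 0 h and 9043 to 9136 at 12 h in MB468, and moved the other way there. Reads from these shared bases cannot be assigned either, and their part in the MMACHC counts was not tested.

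MMADHC (chr2:149569637-149587778, minus strand, 8 exons), whose product directs cobalamin between cytosol and mitochondrion, fell in MB468 and rose in MB468res-R8. In MB468 its normalized counts were 1738, 1709 and 1651 at 0 h, 1722, 1843 and 1612 at 0.5 h, 1584, 1729 and 1964 at 2 h and 1457, 1371 and 1243 at 12 h. In MB468res-R8 they were 1835, 1600 and 1802 at 0 h, 1942, 1789 and 1777 at 0.5 h, 1733, 1597 and 1799 at 2 h and 2008, 2379 and 1982 at 12 h. At 12 h every MB468 library was below, and every MB468res-R8 library above, all earlier libraries of its own line. The log2 fold change was -0.33 ± 0.08 (edgeR adjusted p = 0.000826) in MB468 and 0.28 ± 0.08 (adjusted p = 0.00386) in MB468res-R8, and the responses differed by 0.61 ± 0.11 (adjusted p = 6.21e-05). MMADHC shares 522 bp of exon, 24.3% of its exon bases, with a divergent noncoding transcript on the opposite strand, and the annotation holds 2 pseudogenes named after it.

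CD320 (chr19:8302127-8308358, minus strand, 5 exons), the receptor for cobalamin-bound transcobalamin, was lower in MB468res-R8 from the start. It shares 76 bp of exon, 3.33% of its exon bases, with another protein-coding gene on the same strand. In MB468 it had 1223, 1120 and 1082 normalized counts at 0 h, 1028, 1098 and 1127 at 0.5 h, 1280, 1172 and 1191 at 2 h and 880, 818 and 957 at 12 h. In MB468res-R8 it had 852, 846 and 770 at 0 h, 729, 758 and 776 at 0.5 h, 863, 868 and 721 at 2 h and 920, 876 and 923 at 12 h. The 2 lines did not overlap at 0 h and did at 12 h. The difference between MB468res-R8 and MB468 was -0.47 ± 0.07 at 0 h (edgeR adjusted p = 1.28e-07) and 0.03 at 12 h, with a 95% interval of -0.10 to 0.16 (adjusted p = 0.687). MB468 had fallen by 0.37 on the log2 scale (adjusted p = 4.71e-06), and the value in MB468res-R8 was 0.14 (adjusted p = 0.0782), a difference of 0.50 ± 0.09 between the responses (adjusted p = 1.66e-05).

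AHCY (chr20:34280268-34311802, minus strand, 10 exons), the hydrolase that removes S-adenosylhomocysteine, fell in MB468 and rose in MB468res-R8 at 12 h. In MB468 its normalized counts were 6321, 6277 and 5895 at 0 h, 5420, 5595 and 5658 at 0.5 h, 6218, 6231 and 6173 at 2 h and 4825, 5174 and 5200 at 12 h. In MB468res-R8 they were 5641, 5358 and 5447 at 0 h, 5104, 5339 and 5155 at 0.5 h, 5331, 5730 and 5989 at 2 h and 6945, 6658 and 6887 at 12 h. In MB468 the 0.5 h libraries lay below those at 0 h and the 2 h libraries lay among them again. The log2 fold change in MB468 was -0.15 ± 0.04 at 0.5 h (edgeR adjusted p = 0.00323) and -0.28 ± 0.04 at 12 h (adjusted p = 6.57e-08), and in MB468res-R8 it was 0.32 ± 0.04 at 12 h (adjusted p = 1.15e-08). The responses at 12 h differed by 0.60 ± 0.06 (adjusted p = 9.59e-12). The annotation holds 6 AHCY pseudogenes, and how reads shared with them were counted is not stated. AHCY also shares 139 bp of exon, 3.57% of its exon bases, with a noncoding gene on the same strand.

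AHCYL1 (chr1:109984765-110023742, plus strand, 17 exons), the IRBIT gene, had the most counts of the 9 and fell in both lines between 2 and 12 h. In MB468 it had 12167, 12627 and 13151 normalized counts at 0 h, 12345, 12328 and 12939 at 0.5 h, 12651, 12430 and 11584 at 2 h and 6735, 6696 and 6587 at 12 h. In MB468res-R8 it had 13470, 14655 and 13622 at 0 h, 13564, 13552 and 14014 at 0.5 h, 13765, 14215 and 13891 at 2 h and 8284, 8239 and 8634 at 12 h. No 12 h library of either line came near the earlier ones. The level at 12 h was 0.528 times that at 0 h in MB468 (log2 -0.92 ± 0.04, edgeR adjusted p = 5.57e-23) and 0.603 times in MB468res-R8 (-0.73 ± 0.04, adjusted p = 3.08e-19). The fall was smaller in the revertant by 0.19 ± 0.06 (adjusted p = 0.00304).

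AHCYL2 (chr7:129225030-129430211, plus strand, 17 exons), the closest homolog of AHCYL1, moved least. It shares 429 bp of exon, 6.26% of its exon bases, with a noncoding gene on the opposite strand. In MB468 it had 711, 676 and 641 normalized counts at 0 h, 758, 728 and 656 at 0.5 h, 737, 731 and 722 at 2 h and 814, 764 and 774 at 12 h. In MB468res-R8 it had 705, 690 and 800 at 0 h, 750, 716 and 759 at 0.5 h, 759, 886 and 826 at 2 h and 705, 711 and 665 at 12 h. Most groups overlapped one another. The 12 h value in MB468 was 0.21 ± 0.07 (edgeR adjusted p = 0.00472), but it turned to -0.03 with spike-in scaling and lost its call without MB468 0 h replicate 3 (0.15). The value in MB468res-R8 was -0.07 (adjusted p = 0.353), and the responses differed by -0.29 ± 0.10 (adjusted p = 0.00971), a call lost without MB468 0 h replicate 3 or MB468res-R8 12 h replicate 3 (both -0.21) and under spike-in scaling (-0.03, adjusted p = 0.913).

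CTH (chr1:70411218-70439851, plus strand, 12 exons), which completes the conversion of Hcy to cysteine, showed the widest gap between the lines among the 9. In MB468 its normalized counts were 633, 755 and 845 at 0 h, 841, 726 and 991 at 0.5 h, 779, 830 and 690 at 2 h and 945, 889 and 874 at 12 h. In MB468res-R8 they were 463, 546 and 403 at 0 h, 455, 482 and 551 at 0.5 h, 525, 558 and 531 at 2 h and 165, 246 and 211 at 12 h. Every MB468res-R8 library was below every MB468 library, and its 12 h libraries were below all others. The level in MB468res-R8 was 0.638 times that in MB468 at 0 h (log2 -0.65 ± 0.13, edgeR adjusted p = 0.000249) and 0.228 times at 12 h (-2.13 ± 0.14, adjusted p = 8.86e-12). In MB468res-R8 it fell by 1.20 ± 0.15 on the log2 scale from 0 to 12 h (adjusted p = 5.06e-07). In MB468 the value was 0.29 ± 0.12 (adjusted p = 0.0395), a call that hung on the processing. It was lost with DESeq2's size factors (0.27, adjusted p = 0.0594), with DESeq2's Wald test (0.26, adjusted p = 0.0879), with spike-in totals (0.05, adjusted p = 0.778) and under 5 of 6 omissions of a library, all but that of MB468 0 h replicate 3, with values from 0.18 to 0.35. The responses of the lines differed by -1.48 ± 0.19 (adjusted p = 1.02e-06), and by -1.20 with spike-in scaling.

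**Figure D2:**
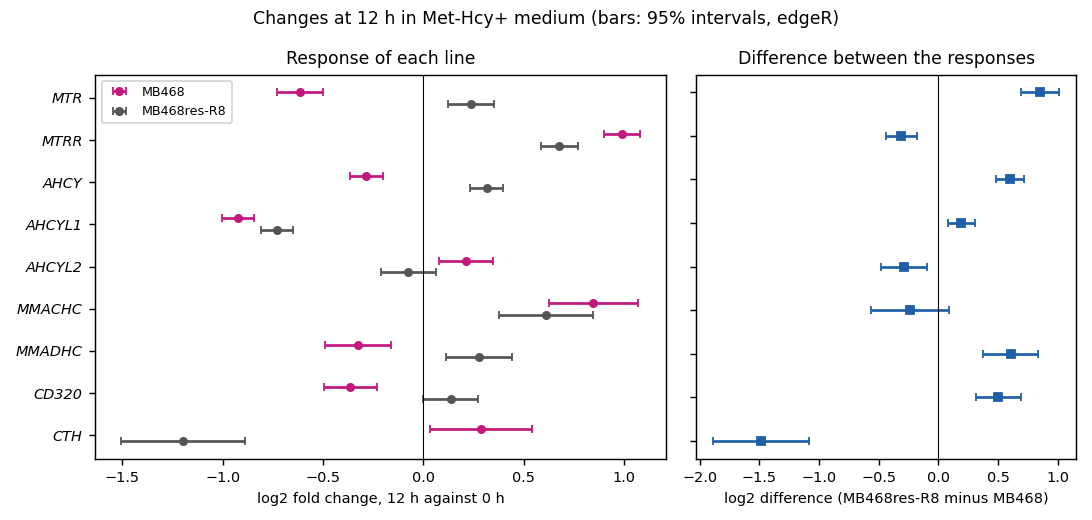
Log2 fold change of each gene at 12 h against 0 h in each line (left) and the difference between the 2 responses, MB468res-R8 minus MB468 (right), with 95% intervals from edgeR. MTR, AHCY and MMADHC lie on opposite sides of 0 in the lines, and the difference was furthest from 0 for CTH, at -1.48.

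The difference between the responses of the lines was called for 8 of the 9 genes at 12 h, 5 of them more positive in MB468res-R8 and 3 more negative, with MMACHC the exception. Of all genes tested, 26.2% were called more positive and 30.3% more negative, and the median difference was 0.19 over the members and -0.05 over all genes. Spike-in scaling moved the median of all genes to 0.20 and the share of called genes that were more positive from 46.3% to 69.9%, and left 6 of the 9 members called. At 0.5 h and 2 h, 0 of the 9 differences were called by edgeR, against 2.90% and 5.07% of all genes. DESeq2's Wald test and the other alternatives gave 0 as well, but for spike-in scaling at 2 h, which called MTR (0.59, adjusted p = 0.0387), and the omission of MB468res-R8 2 h replicate 2, which called MTR too (0.28, adjusted p = 0.0492). At an unadjusted p under 0.05, edgeR gave 0 of the 9 at 0.5 h and 1, MTR, at 2 h.

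**Figure D3:**
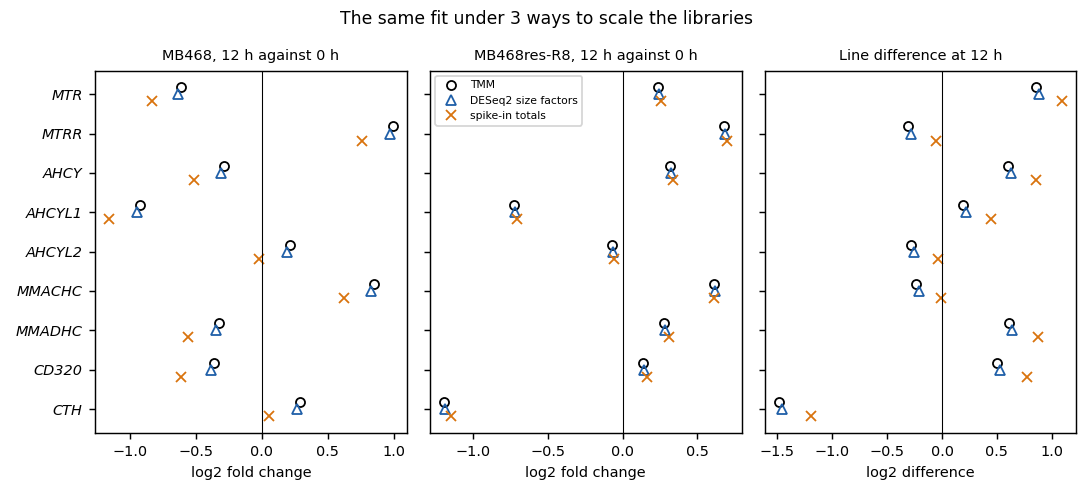
Log2 values at 12 h (horizontal axes) of the 9 genes under 3 scalings of the libraries, TMM, DESeq2's size factors and spike-in totals, for each line and for the difference between them. In MB468 the spike-in values sit to the left of the others and AHCYL2 crosses 0 (0.21 to -0.03), whereas in MB468res-R8 the 3 scalings nearly coincide.

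Before the switch, in Met+ medium, 6 of the 9 genes were called between the lines. CD320 and CTH (above) differed most, and MTRR (-0.28), AHCY (-0.17) and MTR (-0.14, edgeR adjusted p = 0.0278) were also lower in MB468res-R8. AHCYL1 was called higher (0.14, adjusted p = 0.00266), a direction that turned to -0.17 with spike-in scaling, which moved the median of all genes to -0.31. The MTR call was lost without MB468 0 h replicate 1 or 2 or MB468res-R8 0 h replicate 1 or 2, with values from -0.20 to -0.11. Of all genes, 26.4% were called higher and 27.1% lower in MB468res-R8 at 0 h, and spike-in scaling moved the share of called genes that were higher from 49.4% to 14.98%. At 12 h, 8 of the 9 were called, 4 higher (MTR 0.71, MMADHC 0.64, AHCY 0.43, AHCYL1 0.33) and 4 lower (CTH, MTRR -0.59, MMACHC -0.35, AHCYL2 -0.18), against 33.9% and 39.2% of all genes. The AHCYL2 call was lost without MB468 12 h replicate 1 or MB468res-R8 12 h replicates 1 or 3 (values from -0.20 to -0.11).

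In MB468, 3 of the 9 genes were called at 0.5 h (MTR, MTRR and AHCY, all lower) against 33.9% of all genes, and 1 at 2 h (MTR) against 16.3%. In MB468res-R8, 1 gene was called at 0.5 h (MTR) against 33.7%, and 0 at 2 h against 4.37%. At that last comparison edgeR gave an unadjusted p under 0.05 for MTR and AHCYL2 (adjusted p = 0.153 and 0.156), and DESeq2's Wald test also called 0, while without MB468res-R8 2 h replicate 3 MTR was called (-0.21, adjusted p = 0.0395). These early counts depend on the scaling. With spike-in totals as library sizes all 9 genes were called lower in MB468 at 2 h, where 64.5% of all genes were called in place of 16.3%. The values were -0.79 for MTR and -0.54 to -0.31 for the others, while the median of all genes stood at -0.42 and 2.52% of called genes were higher in place of 54.3%. At 0.5 h in MB468 the share of called genes that were higher went from 51.8% to 13.96% with a median of -0.20, and the members called were again MTR, MTRR and AHCY. In the line differences it went from 41.4% to 79.2% at 0.5 h and from 43.2% to 93.0% at 2 h. Between 2 and 12 h, 7 of the 9 were called in MB468, against 69.7% of all genes, and 8 in MB468res-R8, against 62.5%. With TMM, MTR in MB468 moved by -0.38 by 2 h and by -0.23 from 2 to 12 h. The step by 2 h was -0.79 with spike-in scaling, and the later step on that scale is not given here. In MB468, spike-in scaling called 4 genes from 2 to 12 h, against 56.4% of all genes, with the share of called genes that were higher moving from 49.6% to 65.4% and the median of all genes to 0.17.

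Ratios of raw counts within a library do not depend on how libraries are scaled. The ratio of CTH to MTR was 0.499 ± 0.097 (SD, n = 3) at 0 h and 0.916 ± 0.074 at 12 h in MB468, and 0.346 ± 0.061 and 0.129 ± 0.024 in MB468res-R8. At 12 h the lowest MB468 library stood at 0.835 and the highest MB468res-R8 library at 0.151. The ratio of MTRR to MTR went from 1.38 ± 0.14 to 4.15 ± 0.30 in MB468, whereas in MB468res-R8 it went from 1.25 ± 0.04 to 1.70 ± 0.02. The ratio of AHCY to AHCYL1 rose in both lines, reaching 0.760 ± 0.038 in MB468 (0.488 ± 0.036 at 0 h) and 0.815 ± 0.021 in MB468res-R8 (0.395 ± 0.027 at 0 h). In each of these ratios the 0 h and 12 h libraries of a line did not overlap. The ratios come from the same counts as the tests above, so this adds no independent support. How often other pairs of genes separate in this way was not counted. Ratios show unequal change of 2 genes and not which of them moved.

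**Figure D4:**
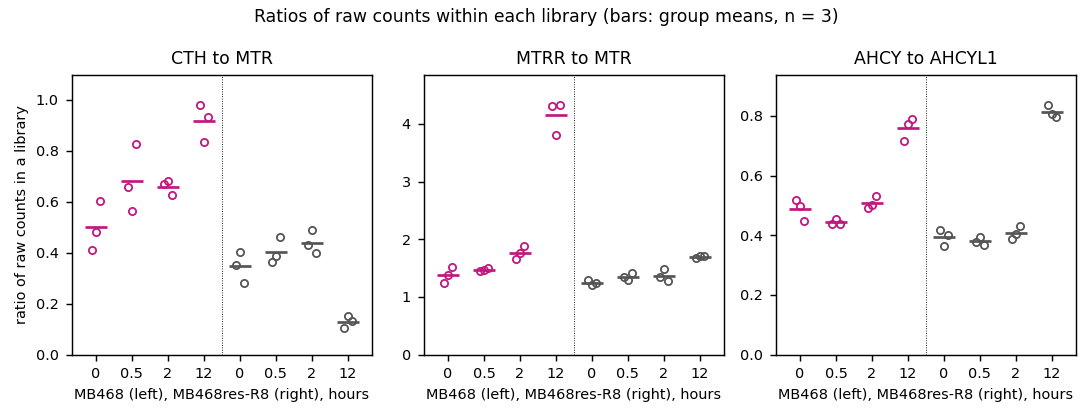
Ratios of raw counts of 2 genes in the same library (vertical axes, from 0), for MB468 (left of each dotted line) and MB468res-R8 (right) at 0, 0.5, 2 and 12 h, with open circles for libraries and bars for means of 3. CTH to MTR separated the lines at 12 h (0.916 against 0.129), and MTRR to MTR reached 4.15 in MB468.

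Levels were compared between genes only per length, as CPM divided by the canonical transcript's length in kilobases. In MB468 at 0 h the order on this scale was AHCYL1 (141 ± 5), AHCY (126 ± 5), MMADHC (53.7 ± 1.4), CD320 (40.1 ± 2.6), MTRR (28.0 ± 1.8), CTH (15.7 ± 2.2), MTR (6.26 ± 0.37), AHCYL2 (5.88 ± 0.30) and MMACHC (2.02 ± 0.33). The libraries of MTR and AHCYL2 overlapped in this order, and those of the other neighbours did not. Methionine synthase was thus among the less abundant of these transcripts per length, with a canonical transcript of 10547 bp. By 12 h AHCY had passed AHCYL1 in both lines, at 104 ± 4 against 74.4 ± 0.9 in MB468 and 140 ± 3 against 93.5 ± 2.4 in MB468res-R8, and CTH in MB468res-R8 had dropped from 9.90 ± 1.51 to 4.37 ± 0.85, below MTR (6.70 ± 0.06).

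Over the 8 groups, the ordered mean normalized counts fell into few separate steps. For MTRR the 2 groups at 12 h (2727 ± 46 in MB468res-R8 and 4093 ± 56 in MB468) stood above all others, which lay between 1657 and 2063. For MMACHC the same 2 groups led, at 331 ± 29 and 424 ± 13, and the other 6 overlapped their neighbours at 215 to 252. For AHCYL1 the 2 groups at 12 h were the lowest (6673 ± 77 in MB468 and 8386 ± 216 in MB468res-R8), and the MB468 groups at 0 to 2 h lay together below those of MB468res-R8. For MTR, AHCY and MMADHC the extremes were MB468 at 12 h (989 ± 67, 5066 ± 210 and 1357 ± 108) and MB468res-R8 at 12 h (1607 ± 15, 6830 ± 152 and 2123 ± 222), though the lowest AHCY group overlapped the next. For CTH the MB468res-R8 group at 12 h was lowest (208 ± 40), its earlier groups overlapped at 471 to 538, and the 4 MB468 groups overlapped at 744 to 903.

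Other genes of the same pathways were taken from lists, and each list is given by its counts. The shares of all genes to set beside every list at 12 h were 36.1% higher and 34.7% lower in MB468. In MB468res-R8 they were 30.2% higher and 31.1% lower. Of 17 other genes of cobalamin handling 15 were in the count table, where CBLIF and MMUT were absent under these names, and 12 were tested. At 12 h 5 were called higher and 3 lower in MB468 and 3 higher and 4 lower in MB468res-R8, with medians of 0.10 and -0.08. The cobalamin list also held the transcription regulators HCFC1, THAP11 and ZNF143, and PRDX1, the gene on the strand opposite MMACHC. The 3 genes of the list with the smallest adjusted p in the line difference were PRDX1 (0.60), MMAA, which guards the cobalamin of methylmalonyl-CoA mutase, and THAP11. MMAA was 0.75 in MB468 and -0.41 in MB468res-R8 (edgeR adjusted p = 3.15e-07 and 0.0043). THAP11, which with ZNF143 and the cofactor HCFC1 is known to drive MMACHC, rose in MB468 from 493, 506 and 542 to 1028, 998 and 1054 normalized counts and in MB468res-R8 from 501, 501 and 489 to 612, 563 and 653. It rose 2.01-fold in MB468 (adjusted p = 1.74e-15) and by 0.29 on the log2 scale in MB468res-R8 (adjusted p = 0.00117), and the responses differed by -0.71 (adjusted p = 3.46e-07). ZNF143 rose by 0.42 and 0.63 (adjusted p = 8.15e-06 and 1.61e-08), and HCFC1 stood at -0.09 and 0.00 (adjusted p = 0.209 and 0.984). Of the 3 members with the ACTACNNNTCCC element, MMACHC rose in both lines while MTR and AHCY fell in MB468 and rose in MB468res-R8. Whether THAP11 or ZNF143 had a part in these changes was not tested.

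Of 16 other genes of the methionine cycle 14 were tested, and at 12 h 2 were called higher and 7 lower in MB468 and 4 higher and 5 lower in MB468res-R8, with medians of -0.22 and -0.08. The shares of all genes given with the cobalamin list apply to the lists here too. The leading 3 in the line difference were MAT2A, which makes S-adenosylmethionine (1.98 in MB468, 0.64 in MB468res-R8), MTHFD1, a folate enzyme (-0.65 and 0.21), and METTL16, which controls MAT2A RNA (1.32 and 0.67), all called in both lines by edgeR. BHMT, which remethylates Hcy with betaine, had 7.66 ± 1.82 normalized counts in MB468 at 0 h. Of 19 other genes of transsulfuration and sulfur disposal 15 were in the count table and 14 were tested. CBSL, SQOR, KYAT1 and KYAT3 were absent from it under these names. At 12 h 5 were called higher and 8 lower in MB468 and 1 higher and 10 lower in MB468res-R8, with medians of -0.13 and -0.34. The leading 3 were CHAC1, a glutathione-degrading enzyme (4.40 in MB468, -0.34 in MB468res-R8), SLC3A2, a subunit of amino acid transporters (1.02 and -0.51), and GOT1 (0.30 and -0.46), with edgeR adjusted p of 0.00859 or less for each. CBS, which makes the cystathionine that CTH splits, was -0.25 in MB468 (adjusted p = 0.0382) and -1.63 in MB468res-R8 (adjusted p = 2.23e-12), so both CBS and CTH were called lower at 12 h in the revertant. How reads that CBS may share with CBSL were counted is not stated. Of 8 partners of AHCYL1, 2 were called higher and 5 lower in MB468 and 3 higher and 3 lower in MB468res-R8, with medians of -0.29 and -0.05, and the leading 3 in the line difference were RRM1 (-0.73 and 0.02), FIP1L1 (0.11 and 0.62) and CPSF4 (0.64 and 0.20).

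**Figure D5:**
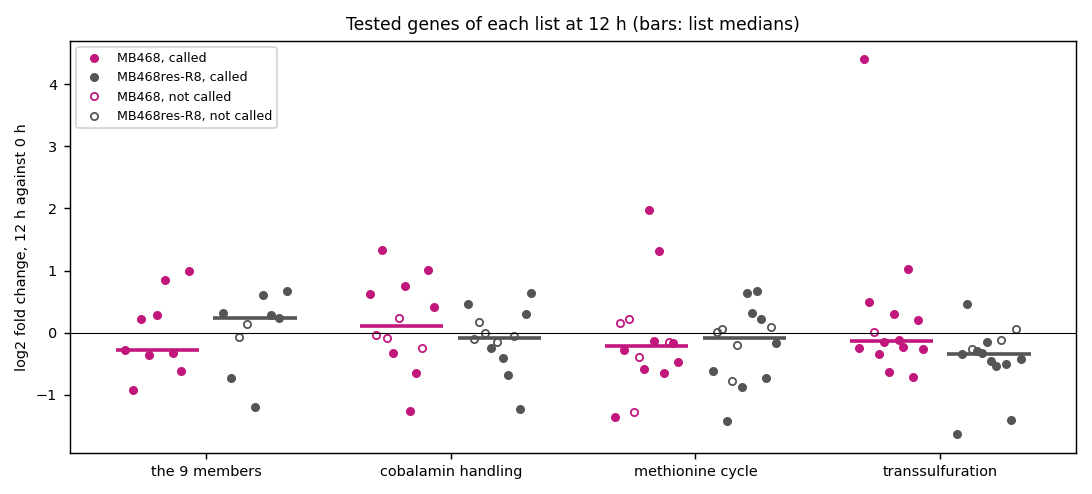
Log2 fold change at 12 h against 0 h (vertical axis) of the tested genes of 4 lists in MB468 and MB468res-R8, with filled points for genes called by edgeR, open points for others and bars for list medians. The members have medians of -0.28 in MB468 and 0.24 in MB468res-R8, and CHAC1 stands apart at 4.40 in the transsulfuration list.

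The genes whose log2 level followed each member most closely over the 24 libraries, which share lines, times and depth, are given as a description by Pearson's r. CTH was followed by PSAT1 (0.986), an enzyme of serine synthesis, and SLC1A5 (0.974), a glutamine transporter. MTR was followed by HSPA8 (0.958), a heat shock cognate chaperone, and NMT1 (0.933), and AHCY by EIF5A (0.950) and TRAP1 (0.918), a mitochondrial chaperone. AHCYL1 was followed by TJP3 (0.989) and PC (0.989), MTRR by THSD4 (0.981) and KCNQ5 (0.978), CD320 by HMGA1 (0.961) and PDLIM7 (0.947), MMADHC by CALM2 (0.940) and IARS2 (0.935), and MMACHC by GEMIN6 (0.920) and MRPL36 (0.920). The closest genes to AHCYL2 reached only 0.705 (C16orf46) and 0.687 (HSPA5). PSAT1 had 11505 ± 729 and 12875 ± 272 normalized counts at 0 and 12 h in MB468 and 8143 ± 404 and 5306 ± 476 in MB468res-R8, and HSPA8 went from 66976 ± 2238 to 29825 ± 2168 in MB468, whereas in MB468res-R8 it went from 57557 ± 1646 to 86744 ± 1953.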

How the data were processed

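Poly(A) RNA of 24 libraries (8 groups of 3) was sequenced as single-end 100 bp reads. Per the labels and methods, the authors aligned reads with HISAT2 2.1.0 to a reference made of GRCh38/hg38 and the spike-in sequences, and deposited raw counts per gene from featureCounts. The annotation release, strand setting and treatment of shared reads are not given in the sources used here. The deposited signal, counts divided by 1 constant per library in DESeq2 (0, 2 and 12 h libraries), served only as an alternative. A deposited table of the authors' own comparisons (fold changes and p-values) was not used. The authors determined unwanted variation with RUVSeq, with settings not given in the sources used here.

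The counts were fitted with edgeR 4.0.16 (R 4.3.3; filterByExpr with a minimum of 10 counts and 15 in total, TMM factors, robust quasi-likelihood, a mean per group over 24 libraries), the 92 spike-ins left out, and p-values were adjusted by Benjamini-Hochberg over 14741 genes (threshold 0.05). The script was tested on simulated data. The members, lists and tests were chosen with earlier results of these data known. The genes named were the 9 members, from each list the 3 of smallest adjusted p in the 12 h line difference and any partner a sentence is about, and the 2 genes of highest r with each member. ESR1 and the markers of other cell types that were present were named, and the promoter motifs chosen, after their values were seen. Coordinates are from GENCODE v44 and need not match the authors' annotation. Alternatives were DESeq2 size factors and Wald test (DESeq2 1.42.0), spike-in scaling and covariate, 2 filters, the replicate block, fewer libraries, a threshold of 0.01 and leaving out each library. No sample was imputed or dropped. Another marker gene is not reported here.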

Additional observations from a re-analysis of the deposited data

Results flagged for a closer look

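The response to 12 h in Met-Hcy+ medium differed between the lines for 8 of the 9 genes by the test of the difference itself (edgeR, Benjamini-Hochberg adjusted over all genes), where 26.2% and 30.3% of all genes differed upward and downward. As MB468res-R8 minus MB468 on the log2 scale, the differences were 0.85 for MTR, 0.60 for AHCY, 0.61 for MMADHC, 0.50 for CD320 and 0.19 for AHCYL1, and -0.31 for MTRR, -0.29 for AHCYL2 and -1.48 for CTH. Spike-in scaling left 6 of the 8 called, where it called 39.3% of all genes in place of 56.5%, with MTRR at -0.06 and AHCYL2 at -0.03. The AHCYL2 call was also lost without MB468 0 h replicate 3 or MB468res-R8 12 h replicate 3 (both -0.21). MTR, AHCY and MMADHC were called in opposite directions in the 2 lines, although the MTR rise in MB468res-R8 lost its call with spike-in scaling. Groups held 3 libraries, so no library was tested as standing apart.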

How the results depend on the processing

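Spike-in totals as library sizes moved the results most. They called 9 members in MB468 at 2 h in place of 1 (64.5% of all genes in place of 16.3%), 4 in MB468 from 2 to 12 h in place of 7 (56.4% in place of 69.7%), 0 in MB468res-R8 at 0.5 h in place of 1 (13.7% in place of 33.7%), and 1 line difference at 2 h in place of 0 (6.32% in place of 5.07%). They turned AHCYL1 (-0.172), AHCYL2 (-0.196) and MMADHC (-0.2695) between the lines at 0 h, CD320 between the lines at 12 h (-0.0140) and AHCYL2 in MB468 at 12 h (-0.0258). No filter on low counts and a threshold of 0.01 also called 0 in MB468res-R8 at 0.5 h. The cause was not tested. Leaving out a library gave 0 to 1 called in MB468res-R8 at 0.5 h, 0 to 1 there at 2 h and 0 to 1 line differences at 2 h, moved the count of members called by no more than 1 in any comparison, and turned MMADHC at 0 h (-0.0142 to 0.0987) and CD320 at 12 h (-0.0158 to 0.0963) between the lines, both not called. Single values were listed under every alternative for 68 of the 117 member comparisons, a limit set after seeing the data. The other 49, uncalled and early (-0.15 to 0.26), changed sign 28 times in 9 alternatives, 18 of them under spike-in totals, and 42 times when a library was left out. Libraries with the same number did not pair: in no comparison did every pair correlate over 0.1 (the highest mean was 0.275, in MB468res-R8 at 2 h, where the lowest pair was at -0.0343). The fit with the replicate block changed none of the 68 calls and called 9 members in MB468 and 7 in MB468res-R8 at 12 h. The deposited normalized values, like the main ones, separated 0 and 12 h in 17 of 18 gene and line pairs. The share of all genes separated in this way was not counted, so this count is not a result about the members. At 12 h, 70.8% of all genes were called in MB468 and 61.3% in MB468res-R8. CTH and MMACHC had the lowest normalized counts of the 9 genes, at 165 and 188 in their lowest libraries. These values are scaled to a common size and are not the reads counted.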
